A study of Mus musculus with 10 samples.

Results

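The genes described here are 10 neutrophil alarmins and receptors of the mouse: *S100a8*, *S100a9*, *Csf3r*, *Cxcr2*, *Trem1*, *Clec4d*, *Clec4e*, *Mmp8*, *Fpr1* and *Fpr2*. They were chosen by their levels in these same mice, in the comparison of chick early amniotic fluid (ceAF) with dextran sulfate sodium (DSS) alone, so their differences between groups are a description and carry no test. All 10 were found among the 56691 genes of the deposited table, each once. Of these, 8 passed the filter on low counts that left 16545 genes for testing, and *Mmp8* and *Fpr1* did not.

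RNA of colon tissue was sequenced from 10 male C57/BL6 mice, 8 weeks old when obtained, in 2 groups of 5. The DSS group drank 3% DSS, a polymer that injures the colonic epithelium, for 7 days. The ceAF group drank 3% DSS for 7 days as well and was then given ceAF by gavage at 15 mL/kg for 10 days. Both groups carried the injury, and untreated colon was not analysed here. The scheme of the animal experiment shows DSS mice gavaged with pure water in place of ceAF, and a single sampling day for all groups at the end of the gavage. Each mouse is named by its group and number (DSS-1, ceAF-1). The total count on genes ran from 14676471 to 19901549 per mouse.

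S100A8 and S100A9 are small calcium-binding proteins that fill the cytosol of neutrophils, form the heterodimer calprotectin, and act as alarmins when released, through TLR4 and RAGE on other cells. Calprotectin in stool is a common clinical measure of intestinal inflammation. The receptors of the group bring neutrophils out of the marrow (the G-CSF receptor *Csf3r*), guide them along chemokines (*Cxcr2*) and formyl peptides (*Fpr1*, *Fpr2*), and amplify or start their activation (*Trem1*, *Clec4d*, *Clec4e*), while *Mmp8* encodes the collagenase of neutrophil granules.

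Levels per mouse are given as CPM, counts scaled to library size with TMM factors. Markers of colonocytes (*Epcam*, *Krt8*, *Krt20*, *Car1*, *Slc26a3*) summed to between 7521 and 21330 CPM in the 10 mice, with *Krt8* the most abundant by mean. *Car1* ran from 115 to 11920 CPM and exceeded *Krt8* in DSS-2, DSS-3 and ceAF-1. Those of squamous epithelium, led by *Krt13*, summed to between 0.576 and 8.47 CPM. The markers of the labelled tissue were thus present in every mouse. The libraries of DSS-5 and ceAF-1 stood most apart from their groups over the genes tested. That of DSS-1 also stood apart from DSS-2, DSS-3 and DSS-4, by less. The chi-square per gene between the counts of a pair of mice is near 1 for counting noise alone, and abundant genes weigh most in it. It was 84.7 to 97.7 for pairs with DSS-5, 47 to 53.7 for other pairs with DSS-1 and 14.7 to 21.4 among DSS-2, DSS-3 and DSS-4. In the ceAF group it was 113 to 149 for pairs with ceAF-1 and 26.5 to 99.7 for other pairs. The part of these differences in the *S100a8* share of DSS-5 and in the low levels of ceAF-1 was not tested. Nor was their part in the high levels of the 10 genes in DSS-1.

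Per length, the alarmins had the highest mean levels of the 10 genes in both DSS and ceAF, as FPKM (reads scaled by library size and gene length). *S100a9* stood at 697, 5.05, 84.6, 6.6 and 16.2 CPM in DSS-1 to DSS-5, and at 0.305, 4.43, 2.52, 13.4 and 1.98 CPM in ceAF-1 to ceAF-5. DSS-1 was far above all other mice, DSS-3 came next, and the groups overlapped, since ceAF-4 lay above DSS-2 and DSS-4. *S100a8* stood at 401, 3.05, 47.8, 3.33 and 44.5 CPM in the DSS mice and at 0.305, 2.28, 1.81, 13.1 and 13.7 CPM in the ceAF mice. Here DSS-3 and DSS-5 were near each other below DSS-1, and ceAF-4 and ceAF-5 both lay above DSS-2 and DSS-4. DSS-1 alone held 86.1% of the summed *S100a9* CPM of the DSS group and 80.2% of that of *S100a8*. The means were 162 ± 301 CPM in DSS and 4.53 ± 5.18 CPM in ceAF for *S100a9* (SD, n = 5 each), and without DSS-1 the DSS mean was 28.1 ± 38.0 CPM (SD, n = 4). In bulk tissue, fewer cells of a type and less RNA per cell cannot be told apart, for these genes and all that follow.

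**Figure D1:**
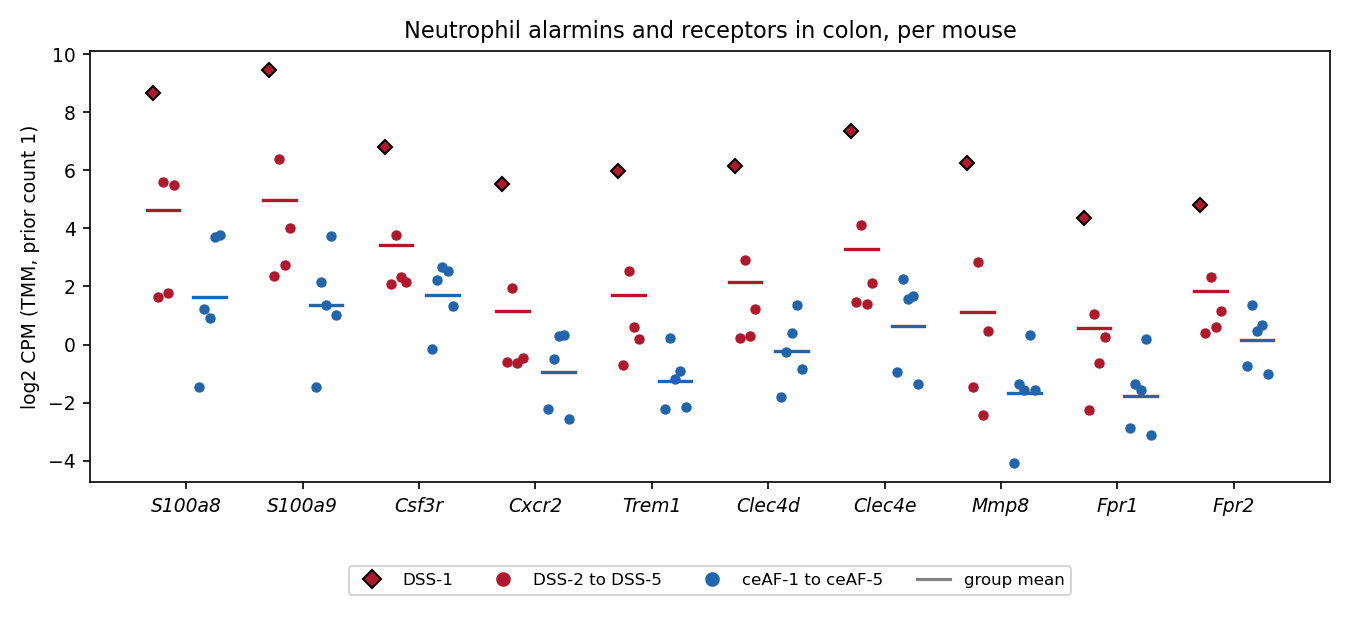
Levels of the 10 genes in each mouse, as log2 CPM with a prior count of 1, with DSS mice in red, ceAF mice in blue and group means of 5 mice as lines. DSS-1, drawn as a diamond, was the highest mouse in 10 of 10 genes, DSS-3 was the second, and in each gene at least 2 DSS mice lay below the highest ceAF mouse.

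The ratio of the 2 alarmins differed between mice. Of the reads on either gene, *S100a8* took 36.5% in DSS-1 (95% exact Clopper-Pearson interval 35.9% to 37.2%), 37.7% in DSS-2 (30.2% to 45.6%), 36.1% in DSS-3 (34.1% to 38.2%) and 33.5% in DSS-4 (26.2% to 41.6%). In DSS-5 it took 73.3% (70.5% to 76.0%). The intervals of DSS-1 to DSS-4 overlapped over a wide range of levels, and that of DSS-5 lay apart from them. Among ceAF mice the share was 50.0% in ceAF-1 (15.7% to 84.3%), 34% in ceAF-2 (24.9% to 44.0%), 41.8% in ceAF-3 (30.8% to 53.4%), 49.4% in ceAF-4 (44.7% to 54.2%) and 87.4% in ceAF-5 (83.0% to 91.0%). The share in ceAF-5 was the highest of the 10 mice, and its interval overlapped only the wide one of ceAF-1, which had 4 reads on each gene. Per length, as FPKM, the ratio of *S100a8* to *S100a9* was 0.433 in DSS-1, 0.425 in DSS-3, 2.07 in DSS-5 and 5.23 in ceAF-5. These intervals cover counting error only. The reads came from 250 *S100a8* and 36 *S100a9* counts in ceAF-5, and from 742 and 270 in DSS-5.

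**Figure D2:**
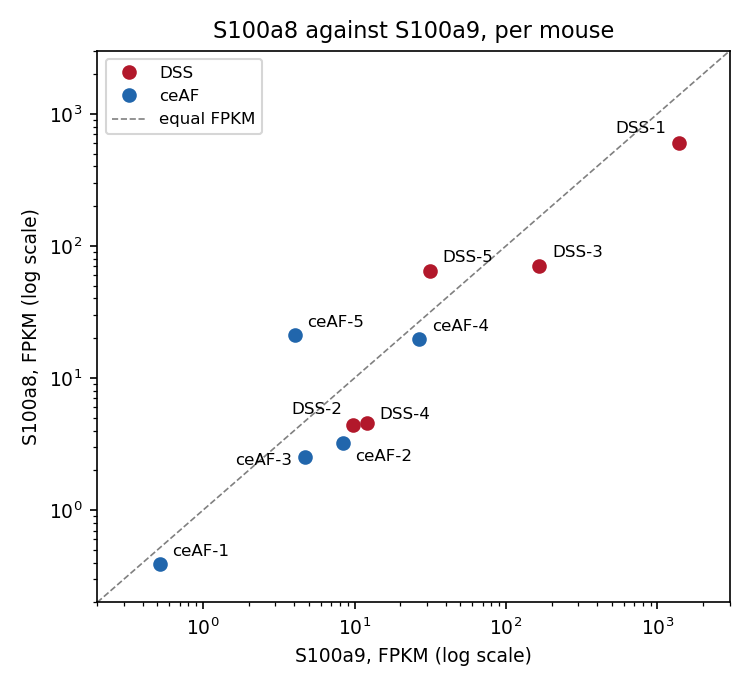
*S100a8* against *S100a9* in each mouse as FPKM, both axes on a log scale, with DSS mice in red, ceAF mice in blue and a dashed line at equal FPKM. DSS-5 and ceAF-5 lie above the line, with ratios of 2.07 and 5.23, and the other mice lie below it.

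In the order of mean FPKM in DSS, *S100a9* (321 ± 599) and *S100a8* (149 ± 254) were followed by *Clec4d* (10.7 ± 19.8), *Csf3r* (7.99 ± 13.6), *Clec4e* (7.88 ± 14.6), *Mmp8* (7.24 ± 14.1), *Fpr2* (5.97 ± 9.15), *Trem1* (4.99 ± 9.51), *Fpr1* (3.77 ± 6.79) and *Cxcr2* (3.49 ± 6.77), with SD over 5 mice. Each SD was larger than its mean, and the 10 genes share the mice that set it. Within mice, *S100a8* stood above *Clec4d*, *Clec4e* above *Mmp8* and *Fpr2* above *Trem1* in 5 of 5 DSS mice, while each other pair of neighbours changed places in at least 1. In ceAF the highest mean FPKM were 9.39 ± 10.1 for *S100a8*, 8.89 ± 10.4 for *S100a9* and 1.11 ± 0.640 for *Csf3r*.

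*Csf3r*, the receptor for G-CSF, stood at 112, 4.15, 13.8, 5.0 and 4.38 CPM in DSS-1 to DSS-5 and at 0.839, 4.56, 6.36, 5.73 and 2.47 CPM in ceAF-1 to ceAF-5. Beside DSS-1 and DSS-3, the DSS mice lay among the ceAF mice, and the medians of 5.0 and 4.56 CPM were close. *Cxcr2*, the receptor for CXCL1, CXCL2 and related chemokines, stood at 45.7, 0.600, 3.77, 0.576 and 0.660 CPM in the DSS mice and at 0.153, 0.651, 1.15, 1.19 and 0.110 CPM in the ceAF mice. For *Cxcr2* too the medians were close, at 0.660 and 0.651 CPM, and ceAF-3 and ceAF-4 lay above all DSS mice other than DSS-1 and DSS-3.

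*Trem1*, whose protein signals through DAP12 and amplifies responses to other receptors, stood at 63.3, 0.550, 5.69, 1.47 and 1.08 CPM in the DSS mice. In the ceAF mice it stood at 0.153, 1.11, 0.384, 0.477 and 0.165 CPM. Only ceAF-2 lay above the lowest DSS mouse, so *Trem1* overlapped less than *Csf3r* and *Cxcr2*. *Clec4e* (Mincle), a lectin that binds mycobacterial glycolipids and a protein of dead cells, stood at 162, 2.70, 17.2, 2.56 and 4.32 CPM in DSS and at 0.458, 4.75, 2.91, 3.16 and 0.330 CPM in ceAF. Its partner *Clec4d* (MCL), which lies next to it in the genome, stood at 70.8, 1.10, 7.48, 1.15 and 2.28 CPM in DSS and at 0.229, 0.781, 1.26, 2.51 and 0.495 CPM in ceAF. For both lectins DSS-2, DSS-4 and DSS-5 lay below the highest ceAF mouse.

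The formyl peptide receptors sense peptides of bacteria and mitochondria. *Fpr2* stood at 27.7, 1.25, 4.97, 1.47 and 2.16 CPM in DSS and at 0.534, 2.54, 1.32, 1.55 and 0.440 CPM in ceAF. *Fpr1* had 349 counts in DSS-1, 34 in DSS-3, 3 to 19 in the other DSS mice and 1 to 18 in ceAF mice. *Mmp8* had 1306, 6, 120, 2 and 22 counts in DSS-1 to DSS-5 and 0, 5, 5, 20 and 5 counts in ceAF-1 to ceAF-5. The 0 in ceAF-1 allows up to 0.229 CPM, which is 3 counts, against 75.7 CPM in DSS-1. ceAF-4 lay above DSS-2 and DSS-4 for both *Fpr1* and *Mmp8*, so these low genes overlapped as the others did.

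Across the 10 genes the same mice were high and low. DSS-1 was the highest mouse in 10 of 10 genes and DSS-3 the second in 10 of 10. ceAF-1 was the lowest in 6 and ceAF-5 in the other 4. In these 4 genes ceAF-1 and ceAF-5 had few and near equal counts, so the scaling to library size set their order. The counts were 2 and 2 for *Cxcr2*, 6 and 6 for *Clec4e*, 1 and 1 for *Fpr1* and 7 and 8 for *Fpr2*. DSS-1 exceeded DSS-3 by between 5.57-fold (*Fpr2*) and 12.1-fold (*Cxcr2*). Of all tested genes, 16% were highest in DSS-1. The ceAF median lay below the DSS median in 10 of 10 genes, the ratio of DSS to ceAF medians running from 1.01 (*Cxcr2*) to 19.6 (*S100a8*), yet 0 of 10 had every ceAF mouse below every DSS mouse, which held for 0.465% of tested genes.

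As log2 CPM, the 45 pairs of the 10 genes had a median Pearson's r of 0.937 over the 10 mice, and over the 9 mice without DSS-1 it was 0.845. The genes were chosen together, and the libraries are shared, so these are descriptions. *Clec4e* and *Fpr2* were most alike (r = 0.993, and 0.987 without DSS-1). *S100a8* departed most, with r down to 0.749 against *Cxcr2* over 10 mice and 0.473 over 9, while the 36 pairs without *S100a8* had r of at least 0.898 and 0.725.

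On the log2 scale of the edgeR quasi-likelihood fit, the change in ceAF against DSS was −5.15 ± 1.5 (SE) for *S100a9*, −4.96 ± 1.39 for *Trem1*, −4.02 ± 1.30 for *Clec4e*, −3.98 ± 1.38 for *S100a8*, −3.95 ± 1.25 for *Clec4d*, −3.94 ± 1.36 for *Cxcr2*, −2.80 ± 1.00 for *Csf3r* and −2.55 ± 0.91 for *Fpr2*. Without DSS-1, the mouse of highest *S100a9*, these became −2.62 ± 1.00 for *S100a9*, −2.24 ± 0.75 for *Trem1*, −1.52 ± 0.80 for *Clec4e*, −1.97 ± 1.05 for *S100a8*, −1.48 ± 0.72 for *Clec4d*, −1.07 ± 0.78 for *Cxcr2*, −0.76 ± 0.55 for *Csf3r* and −0.94 ± 0.56 for *Fpr2*. The median of the 8 went from −3.96 to −1.5, beside 0.01 and 0.02 for all genes tested, and all 8 were smaller without this mouse. Without DSS-5 the median of the 8 was −4.20, and without ceAF-1 that of all 10 genes, which then passed the filter, was −3.71. For *Mmp8* and *Fpr1*, a fit with no filter on low counts gave −5.26 ± 1.44 and −3.66 ± 1.12. Their difference of mean log2 CPM, which is another scale, was −2.79 and −2.31 over 10 mice and −1.51 and −1.36 without DSS-1.

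Of the 8 tested genes 0 were called at an adjusted p under 0.05 with a log2 change of at least 1, as were 0 of all 16545 genes (0%), the smallest adjusted p of the edgeR test being 0.656. At an unadjusted p under 0.05 there were 607 lower genes (3.67%) and 539 higher genes (3.26%). DESeq2 called 28 of the 17303 genes to which it gave an adjusted p (0.162%), 27 of them lower and 1 higher in ceAF. Among the 28 were 0 of the 10 genes described here, and DESeq2 withheld a p for 3 of these 10 as count outliers.

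**Figure D3:**
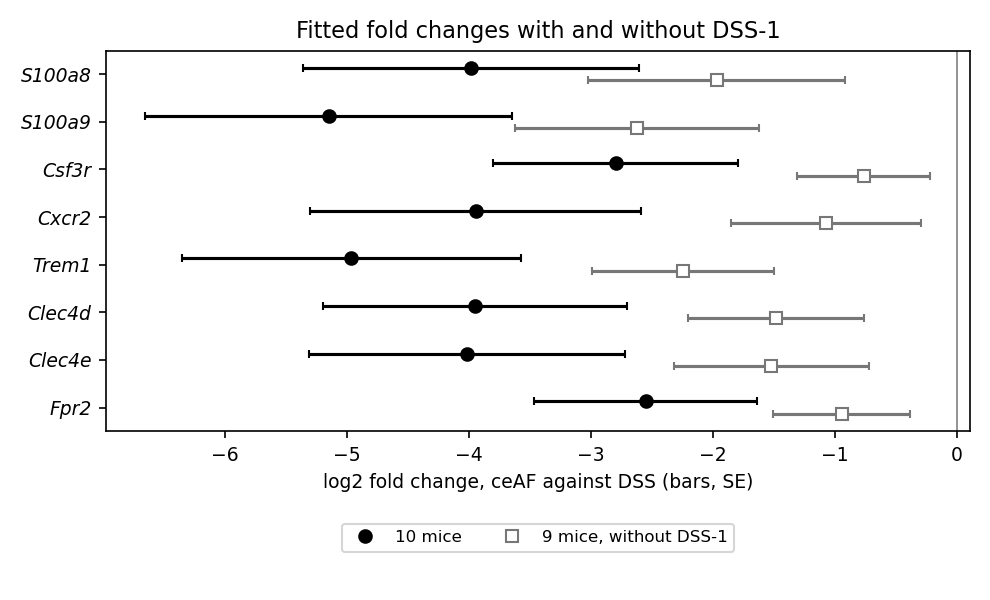
Fitted log2 change in ceAF against DSS for the 8 tested genes, with bars of 1 SE, from all 10 mice (filled) and from 9 mice without DSS-1 (open). For *S100a9* the value moved from −5.15 to −2.62, and for *Cxcr2* from −3.94 to −1.07.

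Ligands of these receptors were examined next, with counts from the same fit at an unadjusted p under 0.05, none of which passed adjustment. Among 12 genes for chemokines, G-CSF, serum amyloids and related ligands 9 were tested, of which 4 were lower and 0 higher at an unadjusted p under 0.05, with a median log2 change of −1.08. *Cxcl2*, a ligand of CXCR2, stood at 501, 4.0, 33.8, 6.15 and 11.5 CPM in DSS and at 0.916, 9.31, 7.29, 6.44 and 0.660 CPM in ceAF (log2 change −4.49 ± 1.43 SE). DSS-1 and DSS-3 were its highest mice and ceAF-1 and ceAF-5 its lowest. *Cxcl3* had a log2 change of −5.05 ± 1.6, *Pglyrp1*, whose protein can bind TREM1, −0.45 ± 0.16, and *Saa2* −0.76 ± 0.33. Leaving out DSS-1 gave −1.49 for *Cxcl2*, −1.48 for *Cxcl3*, −0.33 for *Pglyrp1* and −0.74 for *Saa2*. Without DSS-1 the count of lower genes was 0 of 9, with a median of −0.55, while of all 16713 genes then tested 1.92% were lower and 2.34% higher. *Saa1*, an abundant serum amyloid that FPR2 can bind, was highest in DSS-5 at 2771 CPM and ran from 602 to 1137 CPM in the other mice. The G-CSF gene *Csf3* was too scarce to test, at 8.75 CPM in DSS-1 and at most 0.720 CPM elsewhere.

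The receptors for the alarmins lie on many cell types. Of 6 tested genes for TLR4, its co-receptors, RAGE, basigin and CD36, 0 passed an unadjusted p under 0.05, with a median log2 change of −0.19, and −0.06 without DSS-1. *Cd14* stood at 288 CPM in DSS-1 and between 29.5 and 67.0 CPM in the other 9 mice. *Tlr4* was highest in DSS-5, at 67.9 CPM, and stood at 26.0 CPM in DSS-1. *Bsg*, the most abundant of them, was at 684 ± 106 CPM in DSS and 624 ± 170 CPM in ceAF (SD, n = 5 each).

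Of 13 other S100 genes 10 were tested, with 3 lower and 0 higher at an unadjusted p under 0.05 and a median log2 change of −0.14. *S100a4* had a log2 change of −1.32 ± 0.35, and without DSS-1 of −1.10. *S100a13* had −0.48 ± 0.15 and *S100a6* −0.44 ± 0.19. *S100a6*, *S100a10* and *S100a16* were the most abundant, and *S100a10* stood at 351 ± 54.2 CPM in DSS and 326 ± 33.0 CPM in ceAF (SD, n = 5 each). *S100g* spread widely, from 0.119 to 12.0 CPM, but with DSS-1 among its low mice at 0.232 CPM. Without DSS-1, 2 of 10 were lower, with a median of −0.07.

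Of 20 adaptors and kinases downstream of the receptors, all tested, 5 were lower and 0 higher at an unadjusted p under 0.05, and 3 were lower without DSS-1. The median log2 change was −0.32 with DSS-1 and −0.05 without it. *Fcer1g*, the Fc receptor gamma chain that carries the signal of CLEC4E, had −1.37 ± 0.41, and −0.83 without DSS-1. *Tyrobp*, which encodes the TREM1 adaptor DAP12, had −1.05 ± 0.45, and −0.45 without DSS-1. *Socs3*, a feedback inhibitor of G-CSF signaling, was highest in DSS-5 at 194 CPM and in DSS-1 at 151 CPM, against 23.6 to 51.2 CPM elsewhere (−1.54 ± 0.48). *Arrb2* (−0.75 ± 0.26, and −0.46 without DSS-1) and *Dock2* (−0.86 ± 0.36, and −0.50 without DSS-1) made up the 5. The most abundant, *Gnai2*, *Stat3* and *Syk*, did not pass, at −0.18 ± 0.13, −0.24 ± 0.14 and 0.20 ± 0.28.

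Most genes of granule proteins were scarce. Those of the primary granules are transcribed in the marrow, by promyelocytes. *Elane* and the granulocyte transcription factor *Cebpe* had 0 CPM in all 10 mice, *Ctsg* and *Mpo* were at most 0.116 CPM, and *Prtn3* at most 0.448 CPM. Of 13 granule genes 5 were tested, 2 of them lower and 0 higher at an unadjusted p under 0.05, with a median log2 change of −2.12, and 0 lower with a median of −0.56 without DSS-1. *Hp* (haptoglobin) had −2.76 ± 1.05, and −0.65 without DSS-1, and *Lcn2* −2.73 ± 1.09, and −0.56 without DSS-1. *Lcn2* stood at 137 CPM in DSS-1 and between 0.992 and 14.4 CPM in the other mice, and *Ngp* at 29.9 CPM in DSS-1 and 3.23 CPM in DSS-3, with at most 0.716 CPM elsewhere. *Lyz2*, which macrophages also express, ran from 24.0 to 242 CPM.

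In the phagocyte oxidase, which makes superoxide, 1 of 6 genes was lower and 0 were higher at an unadjusted p under 0.05, with a median of −0.66, and −0.30 without DSS-1. This was *Rac2*, at −1.41 ± 0.38, and −0.98 without DSS-1. Among 17 other surface receptors and related genes of neutrophils, 11 were lower and 0 higher, with a median of −1.30, and 1 was lower without DSS-1, with a median of −0.52. All 17 were highest in DSS-1. *Il1r2*, the decoy receptor for interleukin-1, stood at 120 CPM in DSS-1 and between 0.305 and 7.30 CPM elsewhere (−3.65 ± 1.29, and −0.65 without DSS-1). *Selplg*, the P-selectin ligand, was the 1 gene lower in both (−1.35 ± 0.40, and −0.93 without DSS-1). *Hcar2* (−3.40 ± 1.13), *Mcemp1* (−3.0 ± 1.09), *C5ar1* (−2.16 ± 0.79) and *Itgb2* (−1.04 ± 0.37) were among the 11. Leaving out DSS-1 gave −1.1 for *Hcar2*, −0.77 for *Mcemp1*, −0.64 for *C5ar1* and −0.70 for *Itgb2*.

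Of 6 transcription factors of the lineage 5 were tested, and 2 were lower and 0 higher at an unadjusted p under 0.05, with a median of −0.57, and 1 was lower without DSS-1, with a median of −0.34. *Cebpb* stood at 62.9 CPM in DSS-1 and between 7.15 and 12.6 CPM in the other mice (−1.31 ± 0.53, and −0.34 without DSS-1). *Gfi1* had −0.46 ± 0.18 and −0.52 without DSS-1, and was highest in DSS-4. *Cebpa* and *Cebpd* did not pass, at −0.09 ± 0.22 and −0.57 ± 0.40.

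Several of the genes lie beside relatives. In the coordinates of the table, whose build is not named, *S100a8* (ENSMUSG00000056054, chr3:90576285-90577342, + strand) and *S100a9* (ENSMUSG00000056071, chr3:90599939-90603028, − strand) are 22596 bases apart with 0 genes between them. *Clec4d* (chr6:123239070-123252224) and *Clec4e* (chr6:123258748-123266829) are 6523 bases apart, and *Fpr1* (chr17:18096733-18104202) and *Fpr2* (chr17:18108086-18114214) 3883 bases apart. The others lie at chr4:125918343-125938233 (*Csf3r*), chr1:74193148-74200405 (*Cxcr2*), chr17:48539796-48553952 (*Trem1*) and chr9:7558457-7568486 (*Mmp8*). *Trem3* follows *Trem1* after 852 bases and stood at 4.0 CPM in DSS-1 and at most 0.539 CPM elsewhere, and *Cxcr1*, near *Cxcr2*, at 2.09 CPM in DSS-1 and at most 0.298 CPM elsewhere. Of 16 related receptor genes 10 were tested, with 2 lower and 0 higher at an unadjusted p under 0.05 and a median of −0.66, and 0 lower with a median of −0.21 without DSS-1. The 2 lower genes were *Trem2* (−1.28 ± 0.53, and −1.03 without DSS-1) and *Treml2* (−1.28 ± 0.58, and −0.41 without DSS-1). *Fpr3*, *Fpr-rs3* and *Fpr-rs4* had 0 counts in every mouse. Reads shared between such paralogs could be split by the counting, whose tool is not given in the sources used here.

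Genes listed as neutrophil markers outside the group did not move as one. *Ly6g* stood at 229, 110, 128, 184 and 482 CPM in DSS-1 to DSS-5 and at 19.4, 237, 172, 91.8 and 194 CPM in ceAF-1 to ceAF-5. *Cd177* stood at 163, 243, 175, 261 and 367 CPM in DSS and at 49.3, 383, 427, 263 and 624 CPM in ceAF. Neither was highest in DSS-1, so these 2 surface markers did not rank the mice as the 10 genes did, although ceAF-1 was lowest for both. In ceAF-2 both far exceeded not only the receptors but also *S100a9*, at 4.43 CPM. Whether the *Ly6g* and *Cd177* reads came from neutrophils or from other cells of the colon was not tested. *Retnlg*, in contrast, stood at 263, 0.799, 18.0, 1.22 and 1.5 CPM in DSS and at 0.0763, 0.195, 0.384, 4.36 and 0.275 CPM in ceAF (−5.72 ± 1.81, and −2.31 without DSS-1). *Stfa2l1* stood at 16.4 CPM in DSS-1 and 2.57 CPM in DSS-3 and at most 0.298 CPM elsewhere, with the same 2 mice highest as for the 10 genes. Of the 6 markers 4 were tested, with 1 lower and 0 higher, a median of −0.93, and 0 lower without DSS-1.

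**Figure D4:**
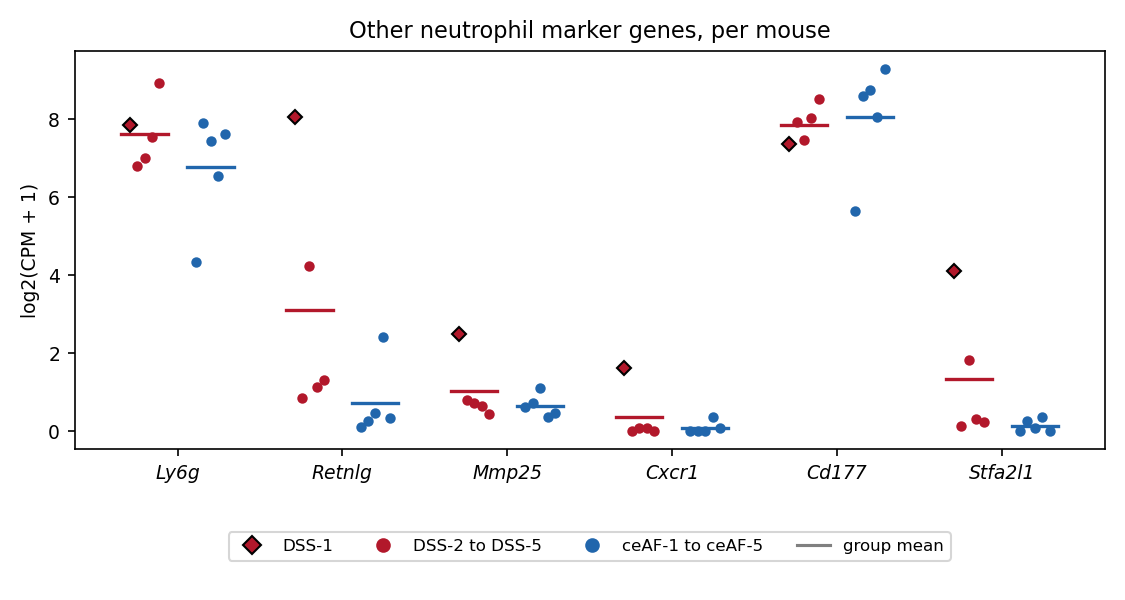
Levels of 6 other neutrophil markers in each mouse, as log2 of CPM plus 1, with DSS mice in red, DSS-1 as a diamond, ceAF mice in blue and group means of 5 mice as lines. *Retnlg*, *Stfa2l1*, *Mmp25* and *Cxcr1* were highest in DSS-1, whereas *Ly6g* was highest in DSS-5 at 482 CPM and *Cd177* in ceAF-5 at 624 CPM.

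The genes most like the group were found by the correlation of log2 CPM with the mean centred log2 CPM of the 10 genes, as a description. Over the 10 mice they were *Cxcl3* (r = 0.985, Spearman's rho = 0.988), *Hp* (0.978, rho 0.976), *Mcemp1* (0.977, rho 0.758), *Cxcl2* (0.967, rho 0.891), *Retnlg* (0.965, rho 0.903), *Tarm1* (0.964, rho 0.842), *Timp1* (0.960, rho 0.939), *Il33* (0.959, rho 0.964), *Tmem38b* (0.953, rho 0.939) and *Emilin2* (0.952, rho 0.855). Of these, *Timp1* encodes an inhibitor of metalloproteinases and *Il33* an alarmin of stromal and epithelial cells. Over the 9 mice without DSS-1, 7 of the 10 were again among the first 10, joined by *Arhgap23* (r = 0.964, rho 0.883), *Fbln5* (0.905, rho 0.900) and *Lama4* (0.896, rho 0.767).

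Markers of other cells were also high or low in some of the same mice, and their part in the values above was not tested. The 4 B cell markers summed to 167, 29.3, 23.6, 27.3 and 28.6 CPM in DSS-1 to DSS-5 and to 6.71, 30.4, 56.6, 9.78 and 83.3 CPM in ceAF-1 to ceAF-5, with *Cd79a* the most abundant and 0 of 4 lower at an unadjusted p under 0.05. The 5 T cell markers summed to 54.9, 54.2, 51.9, 58.1 and 17.9 CPM in DSS-1 to DSS-5 and to 15.9, 31.6, 25.6, 13 and 17.1 CPM in ceAF, with *Trac* the most abundant, and 5 of 5 were lower in ceAF at an unadjusted p under 0.05 and 4 of 5 without DSS-1. The 7 macrophage markers, led by *C1qb*, summed to 173, 130, 138, 140 and 91.8 CPM in DSS and to 42, 108, 131, 84.5 and 105 CPM in ceAF, with 2 of 7 lower, and 0 of 7 without DSS-1. The 5 monocyte markers summed to between 1032 and 1869 CPM, nearly all of it from *Plac8*, which alone ran from 987 to 1830 CPM. The next by mean, *Ccr2*, averaged 18.6 CPM, so the sum is mainly a level of *Plac8*. Which cells gave the *Plac8* reads was not tested. Among the monocyte markers 2 of 5 were lower, and 1 of 5 without DSS-1. Of these *Chil3* stood at 32.0 CPM in DSS-1, 17.9 CPM in DSS-5 and at most 3.11 CPM elsewhere. ceAF-1, the lowest mouse for 6 of the 10 genes, also had the lowest sums of B cell, macrophage and plasma cell markers. Its colonocyte sum was the highest, at 21330 CPM, of which *Car1* made up 11920 CPM, while *Slc26a3* was lowest in this mouse, at 576 CPM. Plasma cell markers, led by *Jchain*, summed to between 79.5 and 757 CPM, and smooth muscle markers, led by *Myh11*, to between 745 and 1891 CPM. Red blood cell markers, led by *Hbb-bs*, were highest in DSS-4 at 41.1 CPM and stood at 13.6 CPM in DSS-1. Of these 3 genes 2 were tested, with a median log2 change of −1.28 and 0 lower at an unadjusted p under 0.05, and without DSS-1 2 of 2 were lower, with a median of −1.43. Eosinophil and mast cell markers summed to at most 3.66 and 5.79 CPM, with *Siglecf* and *Cma1* the most abundant, and the granule marker *Epx* of eosinophils was at most 0.12 CPM.

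Promoters of the 10 genes were read from RefSeq sequence of GRCm38.p6, from 250 bases before each start to 50 after it, and all 10 matched by symbol. Of these windows, 3 of 10 held the C/EBP core TTGCNNAA on either strand (*S100a9*, *Clec4e*, *Mmp8*), beside 10.8% of all 32851 promoters. The ETS core AGGAAGT was in 3 of 10 (*S100a8*, *Trem1*, *Mmp8*), beside 9.35%, and the letters TATAAA, the core of a TATA box, in 6 of 10, beside 13.6%, at any position and on either strand. A match of letters is a description and no evidence of binding or of a working TATA box, and only in *S100a8* and *Clec4e* did TATAAA begin 30 or 29 bases before the start. The 250 bases before the start are shown for the alarmin pair, whose ratio differed between mice, 5′ to 3′ on the strand of the gene, with matches to these motifs in capitals.
S100a8: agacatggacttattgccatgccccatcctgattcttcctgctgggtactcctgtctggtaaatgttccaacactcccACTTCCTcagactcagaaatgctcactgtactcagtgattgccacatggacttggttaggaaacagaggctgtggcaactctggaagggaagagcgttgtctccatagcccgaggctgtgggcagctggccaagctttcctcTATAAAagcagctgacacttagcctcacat
S100a9: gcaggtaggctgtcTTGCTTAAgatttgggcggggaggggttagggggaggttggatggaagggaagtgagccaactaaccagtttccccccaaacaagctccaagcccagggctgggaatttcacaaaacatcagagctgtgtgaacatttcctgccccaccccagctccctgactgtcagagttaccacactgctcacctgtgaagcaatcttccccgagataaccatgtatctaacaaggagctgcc
The first lies at chr3:90668821-90669070 on the + strand, with an ETS core on its reverse strand 172 bases before the start and TATAAA 30 bases before it. The second lies at chr3:90695722-90695971 on the − strand, with a C/EBP core 236 bases before the start, and its TATAAA match begins at the start itself, outside the bases shown.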

How the data were processed

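Poly(A) RNA of colon from 10 mice was sequenced. The authors deposited 1 table with the whole-number read count of each gene and mouse, and beside it an FPKM value. Every deposited FPKM equalled the count scaled by exonic length and library total, within 0.006. The submitters' processing notes name cutadapt 1.9.1 and HISAT2 2.2.1, and the build and counting tool are not given in the sources used here. Mice were grouped by their titles. edgeR 4.0.16 in R 4.3.3 was run on all 10 mice (filterByExpr with a minimum count of 10, TMM, quasi-likelihood test, two-sided, Benjamini-Hochberg adjustment over 16545 genes). A call needed an adjusted p under 0.05 and a log2 change of at least 1. DESeq2 1.42.0 and limma 3.58.1 served as alternatives, the edgeR fit was tested on simulated data, and figures used matplotlib 3.10.9 in Python 3.11.15. From each gene list, the 3 genes of highest mean CPM and up to 6 at an unadjusted p under 0.05 were eligible to be named, with the 10 genes most like the group. Other genes named from the lists, such as *Chil3*, *Csf3*, *Ngp*, *S100g* and those at or near 0, were picked after their values were seen. The members and lists were chosen with earlier results of these data known.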

Additional observations from a re-analysis of the deposited data

Results flagged for a closer look

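Mice far from the rest of their group of 5 were sought by the gap between an extreme mouse and its nearest neighbour, as a share of the group's range, for the CPM of the 10 genes, the total count and the *S100a8* share of alarmin reads. Of 24 groups of values 14 passed the limit of Dixon's test, where chance passes about 1 in 20 groups. The genes share their mice and were chosen by their levels in them, so the 14 are not separate events and their number is not set against chance.

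DSS-1 was far above the other DSS mice in 10 of 10 genes, with a gap of 0.887 of the range for *S100a8*, 0.885 for *S100a9*, 0.911 for *Csf3r*, 0.929 for *Cxcr2*, 0.918 for *Trem1*, 0.908 for *Clec4d*, 0.908 for *Clec4e*, 0.907 for *Mmp8*, 0.906 for *Fpr1* and 0.859 for *Fpr2*. In the ceAF group, ceAF-4 was far above the rest for *Mmp8* (0.727) and *Fpr1* (0.735). On the log2 scale 0 of the 20 groups of gene values passed.

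DSS-5, whose library also stood apart from the other DSS mice over the genes tested, did so in the *S100a8* share of alarmin reads (0.897), and DSS-2 had the highest total count (0.908).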

How the results depend on the processing

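The log2 changes of the 10 genes, each in the alternatives where it was fitted, were below 0 in 150 of 150 values, a direction that the choice of the genes fixes. The median of the 8 genes tested moved from −3.96 to −1.39 with voom and sample quality weights. With limma-trend on FPKM it moved to −1.32 at a pseudocount of 1 and −2.28 at 0.1. The change of *S100a9*, the gene of highest mean FPKM in DSS, moved from −5.15 to −3.30 and −3.65 with the same pseudocounts. Leaving out each mouse in turn gave medians from −4.32 (without ceAF-4) to −1.5 (without DSS-1), both over those 8 genes. Without DSS-2, DSS-4, ceAF-1, ceAF-2, ceAF-3 or ceAF-5 the median took in *Mmp8* and *Fpr1* as well. All 10 genes, fitted with no filter on low counts, had a median of −3.93. The cause of these moves was not tested.

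Genes called numbered 0 by edgeR, 28 by DESeq2 and 275 at an unadjusted p under 0.05 with the same fold limit, and from 0 to 3 when each mouse was left out, with 3 without DSS-5. Lower genes at an unadjusted p under 0.05 numbered 607, and 976 with no filter, 1246 with voom and from 321 (without DSS-1) to 997 (without ceAF-1) when each mouse was left out. The counts of each list without DSS-1 were an alternative chosen after seeing the data.

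With the replicate number as a block, 0 genes were called, 341 were lower at an unadjusted p under 0.05 and the median of the 8 tested genes was −2.13. Replicate numbers do not pair the mice, since the deviations of mice of the same number correlated at −0.249, −0.136, −0.00428, −0.159 and 0.286, and 1 of 5 DSS mice correlated best with the ceAF mouse of its own number. With counts as low as 0 to 22 outside DSS-1 and DSS-3, *Mmp8* and *Fpr1* are limited by depth.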
